A study of Mus musculus with 111 samples.

Results

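The genes that drive chromosome condensation, spindle assembly, chromosome separation and cytokinesis were followed in the lungs of mice after bleomycin, an antibiotic that breaks DNA strands and injures the lung. They were taken as a list of 50 named genes, whose rule uses function and no measured values, although it was drawn up with earlier results of these data known, and a gene counted as measured when the array held a probeset annotated to it alone. By that rule 39 of the 50 genes were measured, of 15707 genes in all. Ccnb1, Plk1, Nek2, Mad2l1, Birc5, Nuf2, Prc1, Ect2, Racgap1, Top2a and Mki67 were not analysed here.

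Male C57BL6/J mice, 7 to 9 weeks old when purchased, received 1 intratracheal spray of bleomycin (2 U/kg in 50 µl) or of 50 µl saline and were killed after 1, 2, 7, 14, 21, 28 or 35 days. Each group held 8 mice, 1 array per mouse, apart from saline at day 14 with 7 mice, because the authors had removed an array that stood apart. RNA came from homogenized lung, and the values are log2 levels that the authors normalized by RMA, the robust multi-array average, with array medians between 8.61 and 8.73. The 9 measured markers of lung epithelium, Sftpc among them, had a mean level of 12.7 to 13.1 in every group's mice. In such bulk samples more cells of a type and more RNA per cell cannot be told apart.

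Mitosis is entered when the kinase Cdk1, bound to cyclin A or B, is activated by Cdc25 phosphatases, with the transcription factor Foxm1 driving much of the program. Kinetochores tie the chromosomes to the spindle, the Bub and Ttk checkpoint kinases hold the cell until every chromosome is attached, and the anaphase-promoting complex with Cdc20 and Ube2c then destroys securin (Pttg1), which frees the protease separase (Espl1) to cut cohesin. Transcripts of most of these genes accumulate in G2 and mitosis, through promoter elements known as CHR and CCAAT box, and are scarce in resting tissue such as the adult lung.

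Promoter sequences of 300 bases around the start of transcription (250 before, 50 after, RefSeq, GRCm38.p6) were found for 31 of the 39 measured genes. The letters TTTGAA, the core of the CHR element, stood on either strand in a window of 25 of the 31 genes (80.7%) and of 5466 of all 27025 genes with a window (20.2%). A gene with several starts has several windows and was counted once. Within 50 bases of a start the letters stood in 24 of the 31 genes (77.4%), against 5.72% of all genes. The variant TTCGAA, which reads the same on both strands, was in 3 of the 31 (9.68%; all genes 1.80%), and CCAAT on either strand in 23 of the 31 (74.2%; all genes 41.1%). Both TTTGAA and CCAAT were held by 20 genes (64.5%; all genes 7.97%). The 6 stretches of 150 bases that end at the base before the start, shown here, are each read 5′ to 3′ along the gene. They belong to 4 genes with large differences at days 7 and 14, and then to securin and Cdc25b, which did not pass a rise on those days. The 6 are examples and do not stand for the list. Hmmr, with the largest mean difference of those days (2.26), holds TTTGAA only at +9, after the start and outside such a stretch. Cenpe (1.77) and Nusap1 (1.74) hold none in their windows. Capitals mark TTTGAA or its reverse complement TTCAAA, and CCAAT or its reverse complement ATTGG.
Cdk1: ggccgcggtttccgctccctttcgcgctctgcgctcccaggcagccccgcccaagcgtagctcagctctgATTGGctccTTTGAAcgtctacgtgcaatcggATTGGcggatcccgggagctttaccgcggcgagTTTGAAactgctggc
Cdc20: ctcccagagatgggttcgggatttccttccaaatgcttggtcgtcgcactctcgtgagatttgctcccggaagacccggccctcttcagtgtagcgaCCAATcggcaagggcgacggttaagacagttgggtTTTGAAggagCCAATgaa
Ube2c: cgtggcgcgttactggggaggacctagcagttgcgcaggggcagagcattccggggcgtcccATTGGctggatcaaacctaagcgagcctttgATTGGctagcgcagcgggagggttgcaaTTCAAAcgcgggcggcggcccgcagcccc
Ncapg: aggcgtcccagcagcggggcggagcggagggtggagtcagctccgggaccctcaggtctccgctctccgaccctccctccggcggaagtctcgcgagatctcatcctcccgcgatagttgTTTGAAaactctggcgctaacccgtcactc
Pttg1: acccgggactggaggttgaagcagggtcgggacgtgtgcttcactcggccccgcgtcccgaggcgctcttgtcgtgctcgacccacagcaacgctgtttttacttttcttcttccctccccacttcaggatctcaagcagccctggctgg
Cdc25b: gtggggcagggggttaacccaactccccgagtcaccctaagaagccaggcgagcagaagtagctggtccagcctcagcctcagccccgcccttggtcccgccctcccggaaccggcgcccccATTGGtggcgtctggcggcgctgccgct
They lie at chr10:69352913-69353062 on the minus strand (Cdk1), chr4:118437344-118437493 on the minus strand (Cdc20), chr2:164769779-164769928 on the plus strand (Ube2c), chr5:45669775-45669924 on the plus strand (Ncapg), chr11:43425982-43426131 on the minus strand (Pttg1) and chr2:131186798-131186947 on the plus strand (Cdc25b).

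The Cdk1 stretch holds TTTGAA at positions -71 and -15 from the start and ATTGG before each of them. Cdc20 holds TTTGAA at -18, Ube2c its complement TTCAAA at -29 and Ncapg TTTGAA at -30. The stretch of securin holds none of these letters, and that of Cdc25b holds ATTGG alone, with a TTCGAA at +8, after the start. TTTGAA was also missing from the windows of Bub1, Cenpe, Ncaph and Nusap1. The mean log2 difference between bleomycin and saline mice at days 7 and 14, given below, had a median of 1.72 over the 25 genes with the letters (0.40 to 2.26) and of 0.66 over the 6 without (-0.60 to 1.77). This is a description with no test, and a match of letters is not evidence of a bound factor.

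Within each day, bleomycin mice were compared with saline mice by limma over all 15707 genes, and rose and fell are written of genes whose p adjusted by Benjamini-Hochberg over all of them was below 0.05. At day 7, 35 of the 39 mitotic genes rose and 1 fell, against 25.7% of all genes that rose and 21.9% that fell. Over 2-fold rises were seen in 30 of the 39 genes and in 2.85% of all genes. In 33 genes the lowest bleomycin mouse lay above the highest saline mouse, which held for 10.3% of all genes. At day 14, 37 rose and 1 fell (all genes 21.9% and 19.7%), 29 of them over 2-fold (all genes 2.41%), and in 34 the groups did not overlap with bleomycin above (all genes 10%). The median log2 difference of the 39 genes was 1.49 at day 7 and 1.44 at day 14, while that of all genes was -0.01 on both days.

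**Figure D1:**
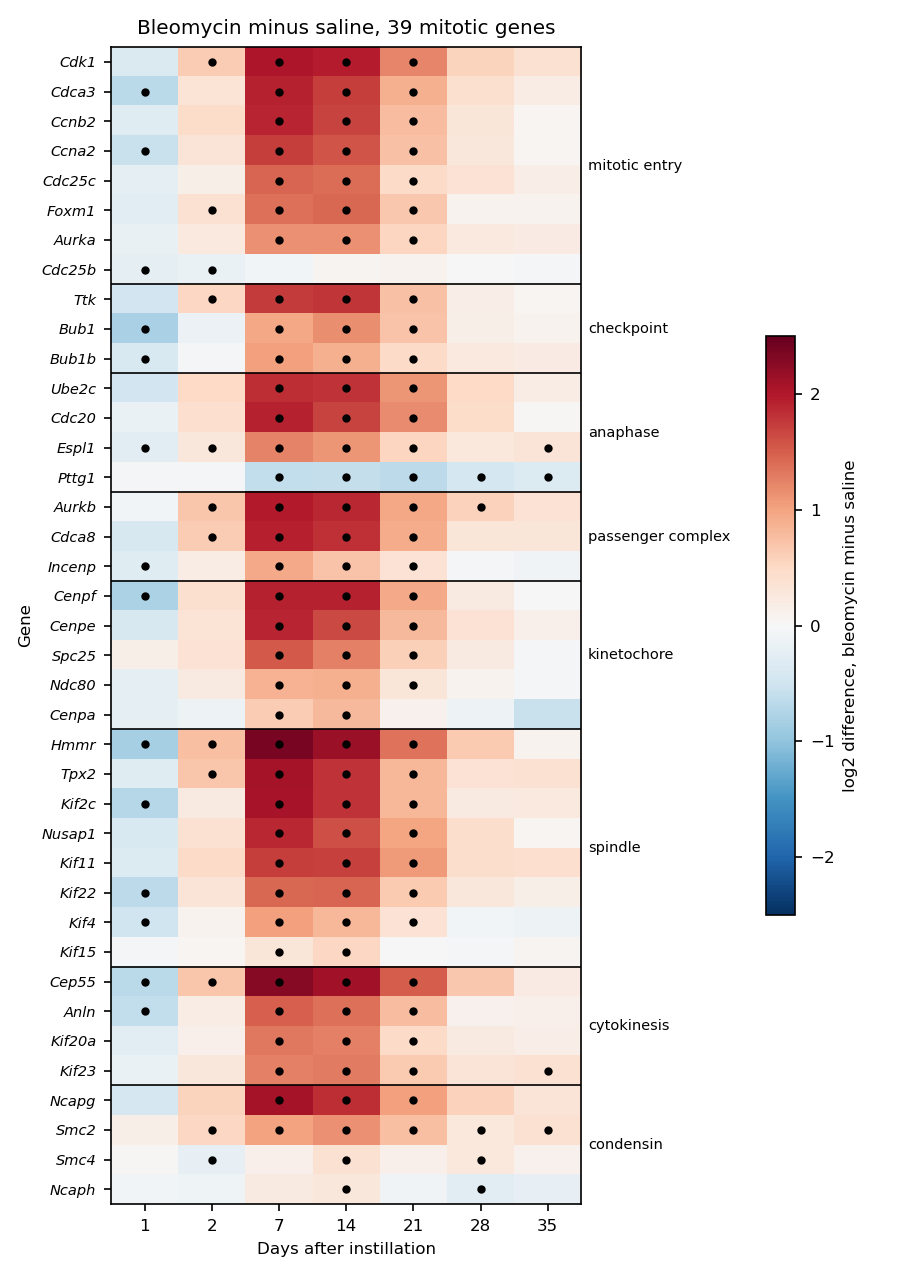
Log2 difference between the mean of bleomycin mice and the mean of saline mice for the 39 measured genes (rows, ordered by role) on each of the 7 days (columns), shown as colour, red for higher and blue for lower in bleomycin mice, with a dot where the adjusted p was below 0.05. Most rows are blue or pale at day 1 and deepest red at days 7 and 14, and Pttg1 is blue from day 7 to day 35.

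Of the 8 measured genes of mitotic entry, 7 rose at day 7, with a median log2 difference of 1.59. Cdk1, the master kinase of mitosis, was at 10.42, 10.75 and 10.91 (lowest, median and highest log2 level) in bleomycin mice and at 8.39, 8.68 and 8.98 in saline mice. Every bleomycin mouse was far above every saline mouse, with a difference of 2.03 (SE 0.22), 4.08-fold, at an adjusted p of 2.36e-13 by limma. At day 14 the difference was 1.97. Cdc25b, a phosphatase that activates Cdk1, was the exception of the group, with differences of -0.07 at day 7, 0.08 at day 14 and 0.09 at day 21 that did not pass (adjusted p 0.267, 0.278 and 0.185). Its bleomycin mice at day 7 lay at 11.62, 11.88 and 12.10 and its saline mice at 11.83, 11.94 and 12.05, so the groups overlapped almost fully.

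All 3 measured checkpoint kinases rose at day 7. Ttk, also called Mps1, which recruits the checkpoint to unattached kinetochores, was at 7.95, 8.27 and 8.65 in bleomycin mice and at 6.34, 6.56 and 6.82 in saline mice. The difference was 1.75 (adjusted p 8.97e-13) and 1.79 at day 14. Bub1b, whose protein BubR1 binds and blocks Cdc20, had the smallest mean difference of days 7 and 14, with 9.24, 9.42 and 9.65 against 8.27, 8.43 and 8.49 at day 7 and a difference of 1.02 (SE 0.12). Its groups still did not overlap. Bub1, the kinase that recruits checkpoint proteins to the kinetochore, was higher by 0.97 at day 7 and 1.17 at day 14.

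Among the 4 genes of anaphase onset, 3 rose at day 7 and securin fell. Ube2c, the ubiquitin-conjugating enzyme of the anaphase-promoting complex, was at 10.21, 10.78 and 10.94 in bleomycin mice and at 8.63, 8.83 and 9.07 in saline mice, 3.61-fold higher (adjusted p 6.56e-12). Cdc20, the activator of that complex, was higher by 1.93 at day 7 and 1.69 at day 14. Securin, the inhibitor of separase, went the other way. Its levels at day 7 were 9.76, 10.05 and 10.39 in bleomycin mice and 10.54, 10.68 and 10.75 in saline mice, a difference of -0.61 (SE 0.08, adjusted p 3.57e-10), and no bleomycin mouse reached the lowest saline mouse.

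All 3 measured genes of the chromosomal passenger complex, which corrects faulty attachments and guides cytokinesis, rose at day 7. Its kinase Aurkb was at 7.46, 8.06 and 8.29 in bleomycin mice and at 5.68, 5.99 and 6.27 in saline mice, a 3.96-fold difference (adjusted p 1.53e-15). Incenp, the scaffold of the complex, moved least, with 11.06, 11.28 and 11.56 against 10.25, 10.30 and 10.50 and a difference of 0.95 at day 7. At day 14 the Incenp difference was 0.72, and 7 of 8 bleomycin mice were above every saline mouse.

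The 5 measured kinetochore genes all rose at day 7. Cenpf, a large protein of the outer kinetochore, was at 8.00, 8.42 and 8.68 in bleomycin mice and at 5.98, 6.39 and 6.95 in saline mice, a difference of 1.92 (SE 0.26, adjusted p 1.09e-09) that was also 1.92 at day 14. Cenpa, the histone variant that marks centromeres, passed more narrowly, by 0.63 at day 7 (adjusted p 0.0484) and 0.80 at day 14 (adjusted p 0.0162). At day 7 only 1 of 8 bleomycin mice was above the highest saline mouse of Cenpa. A second Cenpa probeset, measured at a higher level, differed by 0.71 at day 7 with an adjusted p of 9.57e-08 over all probesets.

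All 8 spindle genes rose at day 7, with a median log2 difference of 1.80. Hmmr, a microtubule-binding protein of the spindle poles, had the largest difference of the 39 genes at day 7, 5.18-fold. It was at 9.37, 9.58 and 9.76 in bleomycin mice and at 6.88, 7.23 and 7.46 in saline mice (adjusted p 1.26e-11). This size and rank are those of its most variable probeset. Other Hmmr probesets rose by 0.29 and 0.98 at day 7. Kif15, a kinesin that helps to hold the spindle poles apart, moved least of the spindle genes, by 0.30 at day 7 (adjusted p 0.0028) and 0.51 at day 14 (adjusted p 1.48e-06). At day 7 it was at 4.87, 5.49 and 5.64 in bleomycin and at 4.90, 5.08 and 5.23 in saline mice, so 1 bleomycin mouse lay below all saline mice. Kif15 was the dimmest of the 39 genes, with a mean level of 5.18 (percentile 5.53 of all genes). The part of low signal in its small differences was not tested.

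The 4 measured cytokinesis genes rose as well. Cep55, which recruits the abscission machinery to the midbody, was at 10.90, 11.37 and 11.50 in bleomycin mice at day 7 and at 8.57, 9.06 and 9.15 in saline mice, 4.83-fold higher. Kif23, a motor of the central spindle, had the smallest mean difference of both days, with 1.26 at day 7 and 1.29 at day 14, with 7.62, 7.89 and 8.15 against 6.28, 6.69 and 6.94 at day 7.

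Of the chromosome condensation genes 2 of 4 rose at day 7, and all 4 at day 14, on the most variable probeset of each gene. Ncapg, a subunit of condensin I, was 4.25-fold higher at day 7 (6.88, 7.67 and 7.88 against 5.18, 5.43 and 5.81, adjusted p 9.26e-13), while Ncaph, the kleisin subunit of the same complex, differed by 0.22 (adjusted p 0.0728). The core ATPases of condensin also differed from each other in size at day 7, with Smc2 higher by 1.00 (10.72, 11.07 and 11.13 against 9.81, 9.99 and 10.18) and Smc4 by 0.13 (10.59, 10.74 and 10.88 against 10.47, 10.61 and 10.77, adjusted p 0.0596). At day 14 Smc4 had risen by 0.38 with no overlap (adjusted p 4.36e-07), and Ncaph by 0.28 (adjusted p 0.0275). The difference between these genes' responses was not tested. Other probesets of Smc4 did rise at day 7, by 0.15 and 0.21 (limma, adjusted p over all probesets 0.0136 and 0.000106). Another Ncaph probeset rose by 0.27 (adjusted p 0.0100), so whether Smc4 and Ncaph passed at day 7 depended on the probeset.

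The pattern of rise was preceded by a fall. At day 1 none of the 39 genes rose by limma, also at an unadjusted p, and 14 fell, against 14.7% of all genes that rose and 16.7% that fell, and the median log2 difference of the 39 was -0.31. In 7 genes every bleomycin mouse lay below every saline mouse, which held for 1.46% of all genes, and these were Cdca3, Ttk, Kif4, Kif22, Nusap1, Cep55 and Anln, of which Ttk and Nusap1 did not pass the adjusted p. The count of falls depended on the fit: 27 of 39 fell when day 1 was fitted by itself, 24 with all 55 saline arrays as control, and 9 when all probesets of a gene were averaged. Shares of all genes that rose or fell were counted in the main fit only, here and for the alternative fits below. None fell by over 2-fold (all genes 0.121%).

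Bub1 had the smallest adjusted p at day 1, at 6.27, 6.66 and 7.45 in bleomycin mice and 7.15, 7.59 and 7.87 in saline mice, a difference of -0.81 (SE 0.16, adjusted p 3.99e-05). Kif22, a kinesin that pushes chromosomes along the spindle, fell by 0.65 (8.22, 8.41 and 8.59 against 8.81, 9.08 and 9.29, adjusted p 0.000539), and Kif4, a chromosome-bound kinesin, by 0.49 (6.49, 6.70 and 6.82 against 6.85, 7.19 and 7.29). Neither gene's groups overlapped. Anln, an actin-binding scaffold of the contractile ring, fell by 0.62 (7.24, 7.52 and 7.83 against 7.88, 8.13 and 8.49, adjusted p 0.00143), and Cdca3, an adaptor that promotes mitotic entry, by 0.68 (7.56, 7.78 and 7.95 against 8.12, 8.45 and 8.74). Cdc25b fell by 0.21 (adjusted p 0.00106). The other 8 falls were those of Ccna2 (-0.56), Bub1b (-0.39), Espl1 (-0.28), Incenp (-0.29), Cenpf (-0.79), Kif2c (-0.72), Hmmr (-0.84) and Cep55 (-0.68), so the genes with the largest rises at day 7, Hmmr and Cep55, were among those that fell at day 1.

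By day 2 the direction had turned. Of the 39 genes 10 rose and 2 fell (all genes 14.2% and 13.1%), with a median log2 difference of 0.32, and 21 rose when day 2 was fitted by itself or with array weights. Smc2 had the smallest adjusted p (1.56e-05), with 10.01, 10.37 and 10.54 in bleomycin mice and 9.50, 9.90 and 9.99 in saline mice, and was the only one of the 39 whose groups did not overlap (1.41% of all genes, bleomycin above). Aurkb rose by 0.70 (5.87, 6.43 and 6.85 against 5.42, 5.77 and 5.97, adjusted p 0.00256), and Tpx2, the spindle assembly factor that activates Aurka, by 0.70 (adjusted p 0.00347). Cdca8, another passenger subunit, rose by 0.63 (adjusted p 0.00416) and Cdk1 by 0.64 (adjusted p 0.0194), 7 of 8 bleomycin mice being above every saline mouse. Cdc25b and Smc4 fell, by 0.16 (adjusted p 0.0185) and 0.20 (adjusted p 0.00684). With all saline arrays as control the Smc4 difference was 0.02.

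The step from day 1 to day 2 was tested as the difference between the responses of those days. It was positive in 18 of the 39 genes and negative in none by limma (all genes 2.41% and 1.86%). The median step was 0.67 on the log2 scale, and 7 genes passed with a step over 2-fold (all genes 0.255%). At an unadjusted p under 0.05 by limma the step was positive in 30 and negative in 1 of the 39. Here and below, limma shares of all genes were counted at the adjusted p only. Hmmr moved most, by 1.60 (SE 0.40, adjusted p 0.0121), followed by Cep55 (1.37) and Cenpf (1.18). Kif22 moved by 0.96 (adjusted p 0.00482), after its fall at day 1. When all probesets of a gene were averaged, 3 genes had a step over 2-fold.

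From day 2 to day 7 the response increased in 34 genes (all genes 11.6%), in 26 of them by over 2-fold (all genes 1.25%), with a median step of 1.23 and the largest, 1.83, in Kif2c, a microtubule depolymerase. Securin alone decreased, by 0.55 (all genes 7.12%). Between days 7 and 14 none of the 39 genes passed in either direction by limma (all genes 0.286% and 0.382%), with 1 of them higher and 0 lower at an unadjusted p under 0.05. Of the 39 genes, 24 had their largest signed difference at day 7 and 13 at day 14.

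**Figure D2:**
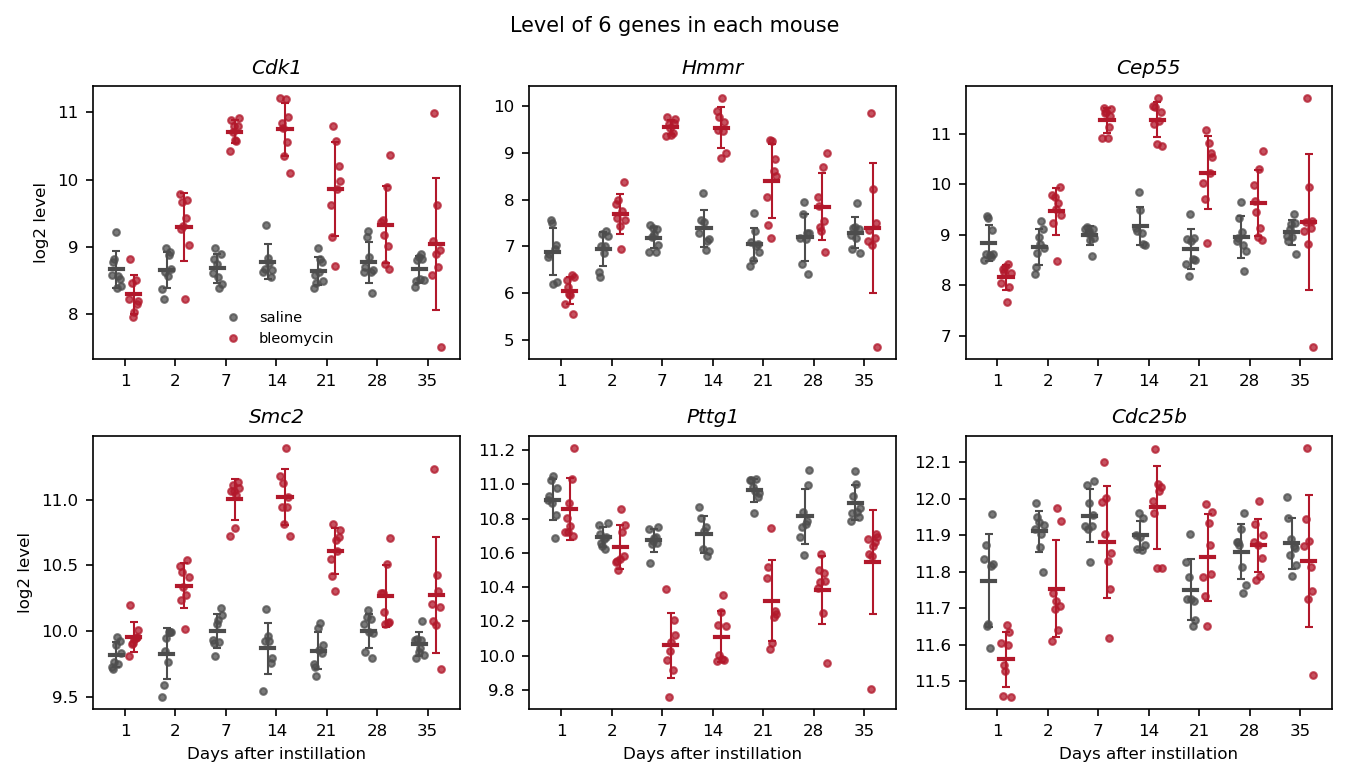
Log2 level (vertical axes) of Cdk1, Hmmr, Cep55, Smc2, Pttg1 and Cdc25b in every mouse of each day (horizontal axes), saline mice grey and bleomycin mice red, with a line at each group's mean and bars of 1 SD. Cdk1, Hmmr, Cep55 and Smc2 separate fully at days 7 and 14, the mean of Pttg1 lies below that of saline from day 7 on, and Cdc25b overlaps at every day.

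From day 14 to day 21 the response became smaller. It decreased in 18 of the 39 genes and increased in none by limma (all genes 3.71% and 2.92%), with a median step of -0.66. Without bleomycin mouse 4 of day 21, the mouse with the lowest levels, it decreased in 11. At an unadjusted p under 0.05 by limma there were 33 decreases and 0 increases, a count with no share of all genes beside it. Ttk decreased by 1.07 (SE 0.28, adjusted p 0.0116) and Kif20a, a cytokinesis kinesin, by 0.77 (adjusted p 0.00446). Of the difference at day 14, a median of 49.0% was left at day 21 over the 37 genes that had risen at day 14. Most was left in Cep55 (71.9%), Cdc20 (70.4%) and Smc2 (65.7%), and least in Ncaph (-32.7%), Kif15 (1.26%) and Cenpa (13.2%). Ncaph, Kif15 and Cenpa differed by only 0.28, 0.51 and 0.80 at day 14. At day 21 they differed by -0.09, 0.01 and 0.11, and none passed. The second Cenpa probeset differed by 0.80 at day 14 and 0.17 at day 21. The shares carry no measure of error.

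At day 21, 33 of the 39 genes still rose and 1 fell (all genes 20.5% and 18.9%), with a median of 0.72. Rises over 2-fold were left in 7 genes (all genes 1.14%): Cdk1, Cdc20, Ube2c, Kif11, Hmmr, Cep55 and Ncapg. There were 4 such genes without bleomycin mouse 3, 13 without bleomycin mouse 4, and 4 when probesets were averaged. Cep55 was at 8.84, 10.38 and 11.07 in bleomycin mice and at 8.18, 8.69 and 9.42 in saline mice, a difference of 1.51 (adjusted p 2.22e-06). Its lowest bleomycin mouse lay among the saline mice, as in most genes, and only Cdca8 and Smc2 were still free of overlap with bleomycin above (2.02% of all genes). Smc2 was at 10.30, 10.65 and 10.82 against 9.66, 9.85 and 10.06.

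At day 28 only 3 genes rose and 2 fell (all genes 11.5% and 11.8%), with a median of 0.26. Aurkb rose by 0.57 (5.90, 6.39 and 7.19 against 5.30, 5.75 and 6.75, adjusted p 0.0196), Smc2 by 0.26 (10.06, 10.22 and 10.70 against 9.79, 10.02 and 10.16, adjusted p 0.0381) and Smc4 by 0.26 (10.52, 10.62 and 10.83 against 10.15, 10.36 and 10.60, adjusted p 0.000938). The saline mean of Smc4 was lowest at day 28 (10.39) of the 7 days and highest at day 2 (10.76). Securin fell by 0.43 and Ncaph by 0.28 (adjusted p 0.0385). The number that rose was fragile: it was 1 without saline mouse 7, bleomycin mouse 5 or bleomycin mouse 8, 6 without bleomycin mouse 6, 7 without saline mouse 3, 8 without bleomycin mouse 4 or without mouse 3 of day 35, 10 without saline mouse 4 and 11 without bleomycin mouse 7, and it was 23 with all saline arrays as control. The number that fell was 1 without saline mouse 1, 3, 4, 5 or 6 or without bleomycin mouse 2, 3, 4 or 8.

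At day 35, 3 genes rose and 1 fell (all genes 16.9% and 12.5%), with a median of 0.13. The risen genes were Smc2 by 0.37 (9.71, 10.20 and 11.23 against 9.80, 9.90 and 10.07, adjusted p 0.00189), Espl1 by 0.32 (adjusted p 0.0172) and Kif23 by 0.38 (adjusted p 0.0362), and securin fell. When day 35 was fitted by itself by limma, none rose, while 4 of the 39 were higher at an unadjusted p under 0.05 in the joint fit. No step from day 21 to day 28 or from day 28 to day 35 passed by limma in any of the 39 genes (all genes, up and down, 0.0255% and 0.0573%, then 0.0255% and 0.0191%), although 13 of them decreased at an unadjusted p under 0.05 from day 21 to day 28, and 0 from day 28 to day 35. Without mouse 3 of day 35 or without mouse 4 of day 21 the response decreased from day 21 to day 28 in 1 gene, and with array weights in 5. Smc2 was the only gene of the list that rose on all 6 days from day 2 on.

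From day 7 on securin fell on every day, beside Ncaph at day 28, while at days 1 and 2 it passed in neither direction. It fell by 0.60 at day 14 (adjusted p 4.63e-09) and by 0.65 at day 21 (adjusted p 3.75e-10), where bleomycin mice lay at 10.04, 10.25 and 10.74 and saline mice at 10.83, 10.97 and 11.03. At day 28 it was at 9.96, 10.43 and 10.59 against 10.59, 10.78 and 11.09 (adjusted p 3.21e-05), with 7 of 8 bleomycin mice below every saline mouse. At day 35 it was at 9.81, 10.65 and 10.71 against 10.78, 10.85 and 11.07, a difference of -0.35 (adjusted p 0.000495), with 8 of 8 mice below. On days 7, 14, 21 and 35 it was thus the only one of the 39 genes whose bleomycin mice all lay below the saline mice (all genes 4.53%, 6.66%, 2.53% and 1.76%). All 3 of its probesets fell at days 7, 14 and 21, the other 2 by 0.31 and 0.23 at day 7, by 0.38 and 0.29 at day 14 and by 0.26 and 0.26 at day 21.

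The 39 genes had 76 probesets, of which 68 rose, 3 fell and 5 passed in neither direction at day 7, and 70, 4 and 2 at day 14. Besides the securin probesets, the fall at day 14 was in Spc25, a subunit of the Ndc80 complex that binds microtubules. Its kept probeset rose by 1.53 at day 7 and 1.25 at day 14, while its second one differed by -0.13 at day 7 (adjusted p 0.0947) and fell by 0.26 at day 14 (adjusted p 0.00141) and by 0.40 at day 21 (adjusted p 5.96e-07). Aurka, the spindle pole kinase, likewise rose by 1.13 in its kept probeset at day 7 and differed by 0.05 (adjusted p 0.572) in a dimmer second one. The direction for Spc25 differed between its probesets. Sizes also differed in some genes. At day 7 Kif2c rose by 2.07 in its kept, most variable probeset and by 0.19 and 0.59 in others. Nusap1 rose by 1.88 and 0.29, while Ccna2 rose by 1.72 and 1.62.

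The mean of the 39 log2 levels in each mouse placed the mice on 1 scale. The saline groups had means of 7.73 to 7.91. Bleomycin mice had a mean of 7.42 ± 0.087 (SD, n = 8) at day 1, 8.03 ± 0.20 at day 2, 9.18 ± 0.16 at day 7, 9.23 ± 0.30 at day 14, 8.42 ± 0.41 at day 21, 8.09 ± 0.38 at day 28 and 7.95 ± 0.68 at day 35. The number of the 8 bleomycin mice above every saline mouse of their day was 0, 6, 8, 8, 7, 2 and 2 in that order. By day 35 the mean of the bleomycin group came close to saline, and its SD was the largest of the 7 days. The median SD of single genes there was 0.71, and 0.27 without mice 3 and 8. None of the 39 genes passed the main test of spread given below.

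**Figure D3:**
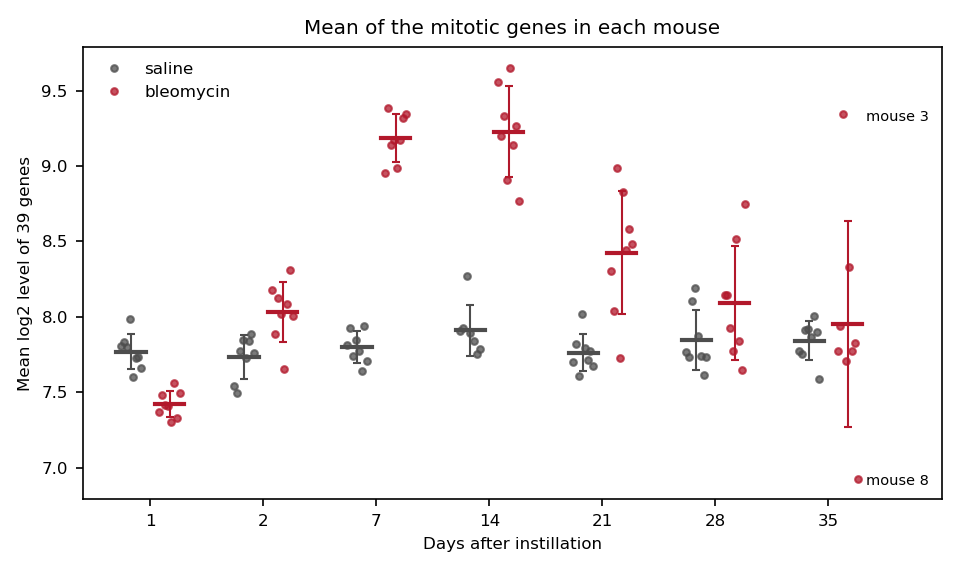
Mean log2 level of the 39 mitotic genes (vertical axis) in every mouse by day after dosing (horizontal axis), saline mice grey and bleomycin mice red, with lines at the group means and bars of 1 SD. At day 35 the bleomycin mice run from 6.93 to 9.34, below and above all 8 saline mice of that day.

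At day 35 bleomycin mouse 3 had a mean of 9.34, within the range of bleomycin mice at day 14 (8.77 to 9.65), and was the highest of its group in 38 of 39 genes and the lowest in securin. Mouse 8 had a mean of 6.93, the lowest of all arrays of the study, was the lowest of its group in 37 genes and lay below every saline mouse of the day in 34 genes, 22 of which had their lowest value of all arrays there. Mouse 5, at 8.33, lay above every saline mouse in 30 genes, and the other 5 mice lay between 7.71 and 7.94. For these counts against saline mice and against all arrays the share of all genes was not counted. Over all genes, mouse 3 was the highest of its group in 18.9% and the lowest in 22.9%. Mouse 8 was the highest in 20.5% and the lowest in 13.8%. Both were thus at an edge of their group in many genes outside the list. Mouse 3 also had the lowest median correlation with its own group of all arrays (r 0.978). Hmmr at day 35 was at 4.85, 7.26 and 9.86 in bleomycin mice and at 6.86, 7.31 and 7.93 in saline mice, and Cep55 at 6.79, 9.20 and 11.69 against 8.62, 9.05 and 9.41.

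Results at day 35 moved with these mice. Without mouse 3 the median of the 39 genes was -0.08, 1 gene rose (Smc2) and 4 fell (securin, Cenpa, Kif4 and Ncaph). Without mouse 8 the median was 0.26, 9 genes rose and securin fell. With both left out, an alternative chosen after seeing the data, Smc2 rose by 0.31 (adjusted p 0.00611), securin fell by 0.25 (adjusted p 0.0130) and no other gene of the list passed. Without mouse 5, 1 gene rose, and without mouse 1, 2 fell. Leaving out mouse 3 also brought the falls at day 1 to 17 and the rises at day 2 to 15, through the shared estimate of the spread.

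The median SD of the 39 genes among bleomycin mice was 0.18 at day 1, 0.27 at day 2, 0.19 at day 7, 0.36 at day 14, 0.46 at day 21, 0.44 at day 28 and 0.71 at day 35, and among saline mice between 0.15 and 0.25. At day 35 it was 0.36 without mouse 3, 0.68 without mouse 8 and 0.27 without both, the latter 2 chosen after seeing the data. The SD was larger among bleomycin than saline mice in 38 genes at day 21, 34 at day 28 and all 39 at day 35. The share of all genes was not counted. Over all genes the median SD on those days was 0.159, 0.145 and 0.152 in bleomycin mice. In saline mice it was 0.142, 0.126 and 0.129. Absolute deviations from the group median were compared by limma over all genes, and none of the 39 passed with a larger deviation in bleomycin mice on any day (all genes 0.0255%, 0.458%, 0.0127%, 0.0446%, 2.1%, 0.00637% and 0% in the order of days), with 14 at an unadjusted p under 0.05 at day 21, 3 at day 28 and 31 at day 35. Without mouse 3 of day 35 the last count was 7, without mouse 8 it was 21, and without both it was 0. Shares of all genes at an unadjusted p were not counted. Bub1b, Aurkb and Anln passed at day 21 when mouse 3 of day 35 was left out, and again when deviations were taken from the group mean; Ccna2, Ccnb2, Bub1 and Aurkb then passed at day 35.

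**Figure D4:**
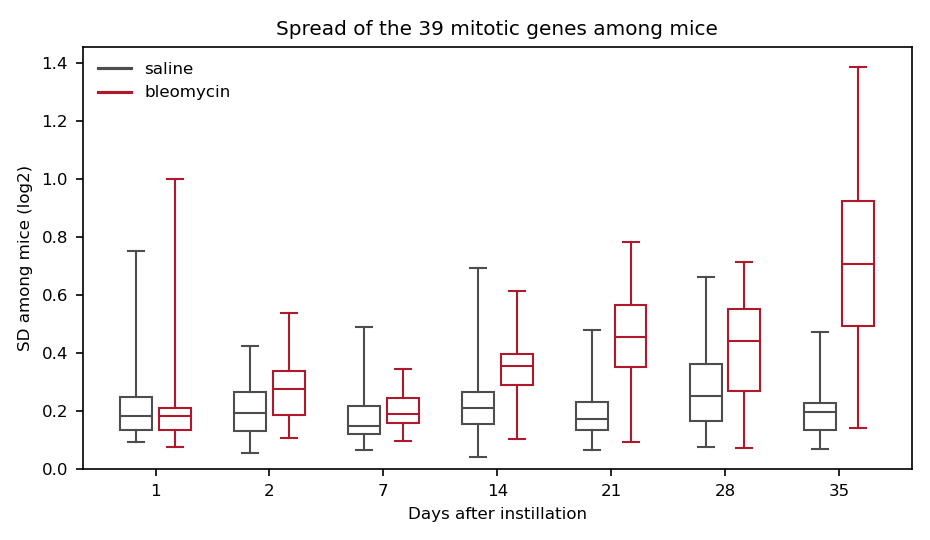
SD of the log2 level among mice (vertical axis) by day (horizontal axis), saline grey and bleomycin red, as boxes over the 39 genes with the quartiles and median, and whiskers to the lowest and highest gene. The bleomycin median is 0.18 at day 1 and 0.71 at day 35 (0.36 there without mouse 3, 0.27 without mice 3 and 8), while the saline median stays between 0.15 and 0.25.

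Other mice stood at the edge of their groups too. At day 21 bleomycin mouse 4 had a mean of 7.73 and was the lowest in 35 genes (23.1% of all genes). Mouse 3 had a mean of 8.99 and was the highest in 31 (16.9% of all genes). At day 28 mouse 8 had a mean of 8.75 and was the highest in 32 genes (17.5% of all genes), and mouse 5 had 8.52. At day 2 mouse 5 was the lowest in 27 genes (16.6% of all genes), with a mean of 7.65. In saline mice of day 14, mouse 3 had a mean of 8.27, the highest saline value in the study. It was the highest of 7 in 33 genes (11.5% of all genes).

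Markers of cell types moved with these mice in part. The 12 measured macrophage markers had a mean level of 9.96 in mouse 4 of day 21, against 10.44 to 11.43 in the other bleomycin mice and 9.90 to 10.16 in saline mice of that day, and of 11.34 in mouse 8 of day 28, the highest of its group. At day 35 mouse 3 had 11.25 and mouse 8 had 10.77, the other bleomycin mice lying between 10.47 and 11.17. Of the 12 markers, 7 were highest in mouse 3 and 1 was lowest in mouse 8. Of 12 fibroblast markers 7 were highest in mouse 3, whose mean level of 10.30 was the highest of the group, and 4 were lowest in mouse 8, which had 9.85 (saline mice 9.74 to 9.92). Of 9 T cell markers none was highest in mouse 3 and 7 were lowest in mouse 8, at a mean level of 8.18 (other bleomycin mice up to 8.92, saline mice 8.70 to 9.08). The 32 measured DNA replication genes were highest in mouse 3 in 29 cases and lowest in mouse 8 in 16, with a mean level of 9.63 and 8.71. The difference between the 3′ and 5′ probesets of actin, a sign of RNA quality, was 0.81 in mouse 3 and 0.79 in mouse 8, within the 0.78 to 0.84 of the group, while saline mice had 0.85 to 0.98. The same difference for pyruvate carboxylase went the other way, with a median of 2.71 in bleomycin mice (2.80 in mouse 3 and 2.66 in mouse 8) and 2.38 in saline mice. The part of cell content or RNA quality in these results was not tested.

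Most macrophage markers rose from day 2 on. At day 1, 2 of 12 rose and 1 fell (mean level 10.08 to 10.66 in bleomycin and 9.59 to 10.23 in saline mice), while 14 of the mitotic genes fell. Of all genes 14.7% rose and 16.7% fell that day. At day 2, 7 rose and 1 fell (10.22 to 11.03 against 9.91 to 10.46). At day 7, 10 of 12 rose and 1 fell, with a median of 1.24 and the largest rises in Msr1 (2.61), C1qb (2.12) and C1qa (1.96), and their mean level was 11.13 to 11.66 in bleomycin mice and 9.89 to 10.24 in saline mice. The median was 1.20 at day 14, 1.01 at day 21, 0.81 at day 28 and 0.99 at day 35, when 8 of 12 still rose. Fibroblast markers had 5 of 12 risen and 1 fallen at day 7 (median 0.16; mean level 10.07 to 10.29 in bleomycin and 9.71 to 10.23 in saline mice) and 7 risen and 2 fallen at day 14 (median 0.37). Of 9 endothelial markers 8 fell and 1 rose at day 7, with a median of -0.40. Of 9 T cell markers 1 fell at day 7, of 7 B cell markers 5 fell (median -0.61), and of 9 neutrophil markers 2 rose and 4 fell (median -0.88). For comparison, 25.7% of all genes rose and 21.9% fell at day 7. Which cells held the mitotic transcripts was not tested.

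**Figure D5:**
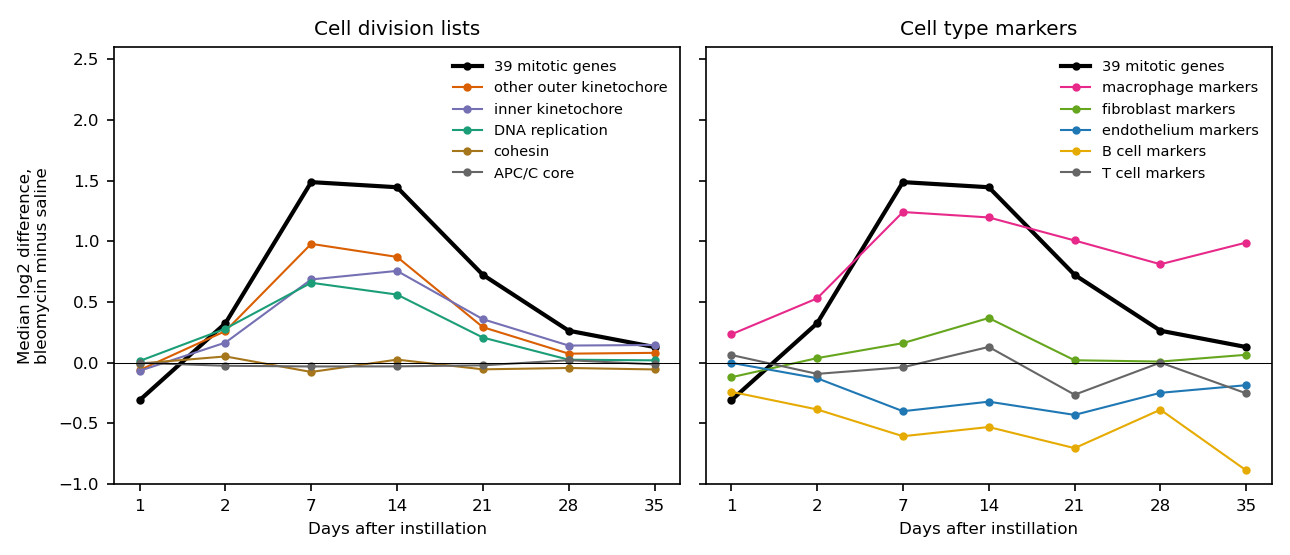
Median log2 difference between bleomycin and saline mice (vertical axes) by day (horizontal axes) for the mitotic genes, in black, beside lists of cell division genes (left) and of cell type markers (right). The kinetochore and DNA replication lists are highest at day 7 or 14 like the mitotic genes, cohesin and the core of the anaphase-promoting complex (APC/C) stay near 0, and macrophage markers are still at 0.99 at day 35.

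Other genes of the cell cycle, from lists of related function, gave the surroundings of the 39. At day 7, 13 of 14 further mitotic regulators rose (median 0.89), with Pbk (2.17), Trip13 (1.55) and Gtse1 (1.53) the largest. Of 14 inner kinetochore genes 13 rose (median 0.69), led by Cenpp (1.69) and Cenph (1.57), and of 16 further outer kinetochore genes 12 rose (median 0.98), led by Ska1 (2.31), which couples kinetochores to microtubule ends. Of 17 further spindle genes 13 rose and Numa1 fell by 0.28; the largest rises were in Kif18b (1.85), Aspm (1.82) and Spag5 (1.82). Of 13 further cytokinesis genes 8 rose, Shcbp1 (2.08), Depdc1a (1.99) and Iqgap3 (1.67) the most, and Rhoa, the GTPase of the contractile ring that acts in many other processes, fell by 0.48. Of 4 further condensin subunits 2 rose, Ncapg2 of condensin II by 1.42 and Ncapd2 of condensin I by 0.45.

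Lists whose core members are present in resting cells as well gave other counts. Of all genes 25.7% rose and 21.9% fell at day 7, and the counts of these lists were not tested against those shares. Of 12 core subunits of the anaphase-promoting complex and its second activator, 2 rose and 3 fell at day 7 (median -0.03), with Anapc10 up by 0.41 and Fzr1 by 0.22, and Anapc11 down by 0.47, Anapc1 by 0.26 and Anapc5 by 0.17. Of 11 cohesin genes, 2 rose and 1 fell (median -0.08). The 2 that rose, Cdca5 (2.09) and Sgo1 (1.31), protect cohesion in dividing cells, and Stag2, a core subunit, fell by 0.28.

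DNA replication genes rose in 30 of 32 cases at day 7 (median 0.66), with Uhrf1 (1.84), Tk1 (1.53) and Gins2 (1.48) the largest. At day 1, where 14 of the 39 mitotic genes fell, 4 of the 32 rose and 2 fell (median 0.01, all genes 14.7% and 16.7%). The largest fall was that of Gmnn (-0.69), the geminin inhibitor of replication licensing. At day 2, 21 of the 32 rose (median 0.28), led by Uhrf1 (0.90), Mcm5 (0.71) and Gins1 (0.66), against 10 of 39 mitotic genes. The difference between the lists was not tested. By day 28, 2 of the 32 rose and 3 fell (all genes 11.5% and 11.8%). Of 24 G1 cyclins, CDK inhibitors, pocket proteins and E2F factors, 14 rose and 3 fell at day 7, with Cdkn1a (1.77), E2f8 (1.68) and E2f7 (1.55) the highest and Cdkn1b the lowest (-0.51). Cdkn1a, the p21 inhibitor that DNA damage induces, was already up by 2.20 at day 1 (adjusted p 1.08e-11) and stayed between 1.28 and 2.20 on all 7 days.

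Saline mice gave the background of the same genes without injury. Between the 7 saline groups 6 of the 39 genes differed (limma F test), against 54.1% of all genes: Cdc25b, Pttg1, Incenp, Kif22, Smc4 and Ncaph. Smc4 ran from 10.39 to 10.76 between group means (adjusted p 5.93e-07) and Pttg1 from 10.67 at day 7 to 10.97 at day 21 (adjusted p 0.00248). When probesets were averaged 3 genes differed. Of the 39 genes 21 had their highest saline mean at day 14, the group with the high mouse 3.

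As a description over the 14 group means, the Pearson r of each gene with the mean of the other 38 ran from -0.91 in Pttg1 to 0.996 in Nusap1, a microtubule-bundling protein. After Pttg1 the lowest were Cdc25b (0.50), Cenpa (0.63), Smc4 (0.68), Ncaph (0.69) and Kif15 (0.75). Outside the list, the genes most like the mean of the 39 were Cdkn3 (0.996), Tk1 (0.996), Knl1 (0.995), Kif18b (0.994), Cenpn (0.994), Pmch (0.993), Parpbp (0.993) and Shcbp1 (0.993). All points share the same 14 groups, and the values carry no test. Pmch, which encodes a hypothalamic neuropeptide, was higher by 1.25 at day 7, and in RefSeq (GRCm38.p6) it lies at chr10:88091072-88092374 and overlaps Parpbp (chr10:88091398-88146969), so that the value named Pmch is uncertain.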

How the data were processed

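Gene expression was measured with Affymetrix Mouse 430 2.0 arrays in lungs of mice, 1 array each. Per the study's methods the authors amplified the RNA, mapped the probes to the mouse genome (build not given in the sources used here) and removed probes with non-unique or outdated mapping. The deposited values are log2 levels, normalized by the authors with RMA (named in the submitters' processing notes), and array depth has no counterpart, so that the number of arrays limits the precision. Of 32688 probesets, 27871 were annotated to 1 gene, 314 to several and 4503 to none; the last 2 kinds were left out, and of several probesets of a gene the most variable was taken (15707 genes).

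The 14 group means were estimated and contrasted by limma 3.58.1 under R 4.3.3 (lmFit, contrasts, eBayes), with Benjamini-Hochberg adjustment over all genes. SEs are those of limma. Each mouse is a separate animal, and no arrays were identical. Spread was tested as absolute deviations from the group median. The scripts were tested on simulated data with known changes. Promoters are those of RefSeq. The members and gene lists were chosen with earlier results of these data known.

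Genes named with values are, in each role, those with the largest and smallest mean difference of days 7 and 14, all that fell on a day, up to 6 called at days 1, 2, 28 and 35, those with most and least of their day 14 difference left at day 21, those whose probesets disagree, and the 8 non-members most like the list. Other lists are described by up to 3 members each way at day 7. Genes named beside small counts, the mice named singly, and the day 35 values of Hmmr and Cep55 were chosen after their values were seen. Alternatives were another probeset or the mean of probesets, a filter on the dimmest 30% of genes, repeated quantile normalization, array medians subtracted, no moderation, all saline arrays as control, 1 fit per day, weights of arrays, replicate number as a block, deviations from the group mean, and single mice left out.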

Additional observations from a re-analysis of the deposited data

Results flagged for a closer look

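A mouse lay far from the others of its group, with a gap to its neighbour above Dixon's 95% critical value for the group's range, in 34 of 546 combinations of gene and group. Chance alone gives about 1 in 20. Of these, 10 were in bleomycin mice of day 35 and 8 in saline mice of day 14. All values here are log2 levels.

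Bleomycin mouse 3 of day 35 lay far above the others of its group in Cdc20 (9.21), Cenpa (7.23), Spc25 (10.12), Kif15 (5.77), Kif4 (8.27), Kif22 (10.99), Anln (9.74) and Smc2 (11.23), and far below them in Pttg1 (9.81, the next mouse being at 10.58). Saline mouse 3 of day 14 lay far above its group in Cdk1 (9.33), Cdca3 (9.02), Ube2c (9.52), Kif22 (9.74), Tpx2 (7.77) and Ncapg (6.41), and in the mean of all 39 genes (8.27, the next mouse being at 7.92). In that saline group mouse 5 was far above the others in Incenp (11.02) and mouse 1 in Cenpa (7.95).

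The remaining cases were spread over groups. Aurka was high in bleomycin mouse 3 of day 35 (9.02) and saline mouse 2 of day 7 (7.98), and Ndc80 in saline mouse 7 of day 2 (7.56). Saline mouse 4 of day 21 was high in Cdca3 (8.97) and Aurkb (6.31). Ttk was high in saline mouse 4 of day 1 (7.03) and saline mouse 2 of day 35 (7.85). Espl1 was high in saline mouse 8 of day 2 (7.70) and low in bleomycin mouse 8 of day 14 (8.17) and saline mouse 8 of day 35 (7.40). Cenpa was high in bleomycin mouse 4 of day 14 (8.75) and saline mouse 7 of day 28 (7.63). Low values were those of Ube2c in bleomycin mouse 5 of day 2 (8.40), Pttg1 in saline mouse 2 of day 7 (10.54), Kif4 in saline mouse 8 of day 2 (6.56), Kif23 in bleomycin mouse 1 of day 1 (5.64) and Cep55 in saline mouse 6 of day 7 (8.57).

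The response to bleomycin differed between days, by the test of the difference itself, in 18 of the 39 genes from day 1 to day 2, in 35 from day 2 to day 7 and in 18 from day 14 to day 21.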

How the results depend on the processing

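The counts of genes that rose at days 7, 14 and 21 stayed within 1.5 times their value under every alternative run. The counts of days 1, 2, 28 and 35 did not. With the brightest probeset 1 gene fell at day 28. With probesets averaged 9 fell at day 1, 4 rose over 2-fold at day 21, 3 had a step over 2-fold from day 1 to day 2, and 3 differed between saline days. With array medians subtracted 5 rose and 1 fell at day 28. With 1 fit per day 27 fell at day 1, 21 rose at day 2 and 0 rose at day 35. With all saline arrays as control 24 fell at day 1, 17 rose at day 2, 23 at day 28 and 6 at day 35, 2 fell at day 35, and the Smc4 difference at day 2 turned from -0.20 to 0.023. With array weights 21 rose at day 2 and 12 at day 28, 3 fell at day 35, and 5 decreased from day 21 to day 28. With deviations from the group mean the spread was larger in 3 genes at day 21 and 4 at day 35. With mice 5 and 8 of day 28 left out 1 gene rose at day 28, and with mice 3 and 8 of day 35 left out 1 rose at day 35 (both chosen after seeing the data). In each case the cause was not tested, and the share of all genes was not counted.

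Replicate numbers are shared between groups, and the labels do not say whether they pair the mice. Deviations of same-numbered mice correlated by -0.33 to 0.41 (median 0.06), over 0.1 in 23 of 55 pairs. No values for mice of different numbers were set beside these. With replicate number as a block 5 genes rose at day 28, and no other count of calls left its range of 1.5 times.

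With single mice of days 7 to 35 left out, 34 to 36 genes rose at day 7 (27 to 31 over 2-fold), 36 to 37 at day 14 (29 to 30 over 2-fold), 32 to 34 at day 21 (4 to 13 over 2-fold), 1 to 11 at day 28 and 1 to 9 at day 35, while 1 to 2 fell at day 28 and 1 to 4 at day 35. The response decreased in 11 to 22 genes from day 14 to day 21. Without mouse 3 of day 35, 17 genes fell at day 1, 15 rose at day 2, the step from day 1 to day 2 was positive in 24, and the spread was larger in 3 genes at day 21. Without that mouse or mouse 4 of day 21 (the latter chosen after seeing the data), 1 gene decreased from day 21 to day 28.

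The values rest on at most 8 mice a group, on 1 probeset per gene, and on whole lung, with no filter on dim genes. The lung's cell content and the share of dividing cells were not measured.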
